A study of Mus musculus with 6 samples.

Results

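Steroid and thyroid hormone receptors are transcription factors that bind a hormone and then change the activity of target genes. The genes described here are those for the glucocorticoid receptor (Nr3c1), the mineralocorticoid receptor (Nr3c2), the oestrogen receptors alpha and beta (Esr1 and Esr2), the progesterone receptor (Pgr) and the thyroid hormone receptors alpha and beta (Thra and Thrb). Fkbp5, a cochaperone of the glucocorticoid receptor, and Dio2, the deiodinase that turns thyroxine into active triiodothyronine, complete the set. Members were all probe sets that the platform annotation names for 1 of these 9 genes alone. That rule found 14 probe sets of 22626 on the array (controls left out) and 8 genes of 12393, since no probe set was named for Nr3c2, which was not analysed here.

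A pair of immortalised mouse hypothalamic cell lines was compared, each measured on 3 arrays, 1 array per culture plate. A_212 was derived from adult hypothalamus and N_46 from embryonic hypothalamus. Both are labelled as expressing Npy (neuropeptide Y), both were immortalised by overexpressing the SV40 T-antigen, and both were grown untreated in medium that held 5% fetal bovine serum until plates were 70% confluent. Each age of origin is represented by 1 line, so age and line cannot be told apart, and p-values measure the spread between plates of a line.

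Values are on a log2 scale and centred per probe set on a median of 0. Only contrasts between arrays remain in them, and whether a receptor was expressed at all cannot be read from centred values. The centring also places the middle arrays at equal distances above and below 0. Folds rest on a log base of 2, which was inferred. Differences are A_212 minus N_46 with the standard error (SE) of limma, and a gene is the mean of its probe sets. A gene or probe set passed the test where limma's p, adjusted by Benjamini-Hochberg over all genes or all probe sets, was under 0.05.

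In the unliganded state, steroid receptors of the glucocorticoid type sit in a complex with the chaperone HSP90 and its cochaperones, and hormone releases them to act in the nucleus. Fkbp5 belongs to that complex, lowers the receptor's affinity for hormone and is itself induced by glucocorticoids. Thyroid hormone receptors sit on DNA with retinoid X receptors whether or not hormone is bound. In the hypothalamus these receptors carry the feedback of adrenal, gonadal and thyroid hormones on the neuroendocrine axes and on appetite.

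Promoter windows from RefSeq (GRCm38.p6) reached from 250 bases before to 50 bases after a gene's start. Leaving out Nr3c1 and Thra, windows of 7 of the 9 members were searched. Those of Fkbp5, Esr2 and Dio2 are shown, because Fkbp5 and Esr2 differed in opposite directions and 1 probe set of Dio2 differed while its others did not. They lie at chr17:28486100-28486399 (minus strand), chr12:76177210-76177509 (minus strand) and chr12:90738989-90739288 (minus strand). Capitals mark matches, on either strand, to the motifs searched. AGAACA is a half-site of glucocorticoid, mineralocorticoid and progesterone receptors, and AGGTCA a half-site of oestrogen and thyroid hormone receptors. Only single half-sites were searched, not pairs of them. The other motifs were TGACGTCA (the cAMP response element), CACGTG (an E-box), TATAAA (the TATA box) and GGGCGG (the GC box).
Fkbp5: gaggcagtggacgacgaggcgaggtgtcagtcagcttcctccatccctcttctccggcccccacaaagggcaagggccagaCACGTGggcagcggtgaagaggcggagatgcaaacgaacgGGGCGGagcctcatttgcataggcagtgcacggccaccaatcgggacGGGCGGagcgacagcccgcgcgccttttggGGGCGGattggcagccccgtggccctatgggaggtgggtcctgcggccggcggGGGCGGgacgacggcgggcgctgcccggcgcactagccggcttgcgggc
Esr2: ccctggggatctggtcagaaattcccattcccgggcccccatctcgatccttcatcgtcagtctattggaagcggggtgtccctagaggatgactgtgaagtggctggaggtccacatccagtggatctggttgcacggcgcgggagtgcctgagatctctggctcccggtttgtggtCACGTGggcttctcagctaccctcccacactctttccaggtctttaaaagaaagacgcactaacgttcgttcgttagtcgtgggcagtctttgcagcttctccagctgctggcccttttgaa
Dio2: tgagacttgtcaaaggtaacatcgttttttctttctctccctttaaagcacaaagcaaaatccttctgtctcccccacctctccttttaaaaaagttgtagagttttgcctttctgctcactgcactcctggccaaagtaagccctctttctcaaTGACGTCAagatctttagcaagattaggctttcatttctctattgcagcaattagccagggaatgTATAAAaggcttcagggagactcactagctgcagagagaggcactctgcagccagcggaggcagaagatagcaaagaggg
The Fkbp5 window held 4 GC boxes, the first of them 129 bases before the start, and 1 E-box 169 bases before it. The Esr2 window held 1 E-box 72 bases before the start and no other of these motifs. The Dio2 window held the cAMP response element 95 bases before the start and a TATA box 30 bases before it. Of all 32851 windows of this length, 1.79% held TGACGTCA, 7.15% held CACGTG, 13.6% held a TATA box and 35.7% held a GC box. Neither AGAACA (19.0% of all windows) nor AGGTCA (16.3%) occurred in the windows shown. Among the 7 members searched, Thrb alone held either, in windows not shown. These were AGGTCA 184 bases before 1 start, and matches to AGAACA 23 and 7 bases before another. No motif match or absence here was tested for a role in the differences below.

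Of the 8 genes measured, Nr3c1 and Fkbp5 were higher in A_212, Esr2 was lower in A_212, and 5 did not pass the test. Among all 12393 genes, 39.2% passed, 18.3% higher and 20.9% lower in A_212, so a count of 3 in 8 is near the share of all genes. The median difference of the 8 genes was 0.07, against -0.06 for all genes. Arrays of the lines did not overlap for 5 of the 8 genes, against 51.1% of all genes. By probe set, 6 of the 14 were higher in A_212, 1 was lower and 7 did not pass, where 36.0% of all probe sets passed, 17.1% higher and 19.0% lower in A_212. The lines did not overlap on 8 of the 14 probe sets, against 48.7% of all probe sets.

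**Figure D1:**
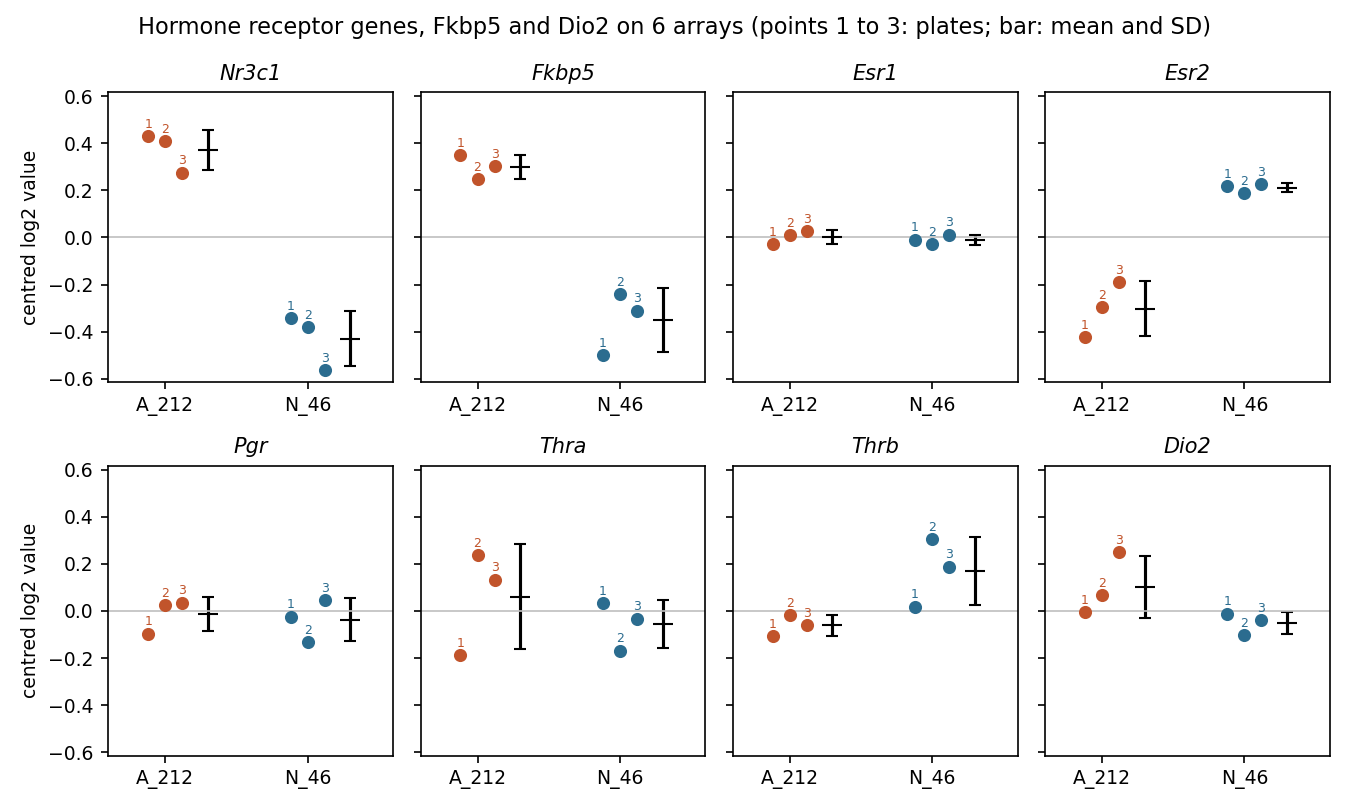
Centred log2 value of each measured gene on the 6 arrays, with A_212 at the left and N_46 at the right of each panel. Numbered points are plates 1 to 3 and bars give the mean and SD (n = 3). Nr3c1 and Fkbp5 lie above 0 on all A_212 arrays, Esr2 lies below 0 on them, and Esr1 and Pgr stay close to 0 on all 6 arrays.

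Nr3c1, the glucocorticoid receptor gene on chromosome 18, had values of 0.43, 0.41 and 0.28 on the A_212 arrays, against -0.34, -0.38 and -0.56 on the N_46 arrays. All A_212 values were above all N_46 values. The means were 0.37 ± 0.08 in A_212 and -0.43 ± 0.12 in N_46 (SD, n = 3 each). The difference was 0.80 ± 0.08 (SE), a 1.74-fold higher signal in A_212, with a 95% interval from 0.62 to 0.99 and a limma adjusted p of 2.8e-05. It was larger in size than the difference of 91.9% of all genes.

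The 3 probe sets of Nr3c1 went the same way. Probe set 1421866_at differed by 0.88 ± 0.10, 1421867_at by 0.75 ± 0.09 and 1460303_at by 0.77 ± 0.11 (SE), with limma adjusted p-values of 5.8e-05, 6.1e-05 and 0.00033. Between pairs of these probe sets the differences were 0.13, 0.11 and -0.02 apart, with raw p-values of 0.3, 0.6 and 0.8 in an exact two-sided permutation test over arrays. With 3 arrays a line the exact permutation test cannot go below p = 0.1, so no pair could have passed and the test says nothing on whether they respond alike. All 3 probe sets are annotated to the same transcript, so they are not independent measurements.

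Fkbp5, on chromosome 17, moved in the same direction as the receptor gene. It had values of 0.35, 0.25 and 0.30 on the A_212 arrays, against -0.50, -0.24 and -0.31 on the N_46 arrays. The lines did not overlap, and N_46 replicate 1 was the lowest array. The difference was 0.65 ± 0.08 (SE, n = 3 arrays per line), a 1.57-fold higher signal in A_212, with a 95% interval from 0.47 to 0.84 and a limma adjusted p of 0.00012. The intervals of Nr3c1 and Fkbp5 overlap.

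Both probe sets of Fkbp5 were higher in A_212. Probe set 1416125_at had 0.32 ± 0.01 in A_212 and -0.45 ± 0.15 in N_46 (SD, n = 3 each), a difference of 0.77, and 1448231_at had 0.28 ± 0.10 and -0.25 ± 0.13, a difference of 0.53. Their limma adjusted p-values were 6.9e-05 and 0.0012. The gap of 0.24 between the differences reached the smallest p the exact permutation test allows, 0.1, or 0.27 after Benjamini-Hochberg adjustment over the 8 pairs of probe sets compared.

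Among the gonadal steroid receptor genes, Esr2 differed and neither Esr1 nor Pgr passed the test. Esr2, on chromosome 12, had values of -0.42, -0.30 and -0.19 on the A_212 arrays, against 0.22, 0.19 and 0.23 on the N_46 arrays. All A_212 values were below all N_46 values, and the A_212 plates spread more widely (SD 0.12) than the N_46 plates (SD 0.02). The difference was -0.51 ± 0.08 (SE, n = 3 arrays per line), with a 95% interval from -0.69 to -0.34 and a limma adjusted p of 0.00041. In fold terms the Esr2 signal was 1.43-fold lower in A_212. It rests on 1 probe set, 1426103_a_at, whose suffix marks probes shared by alternative transcripts of a gene.

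Esr1, on chromosome 10, had values of -0.03, 0.01 and 0.03 on the A_212 arrays, against -0.01, -0.03 and 0.01 on the N_46 arrays. These values lay within the spread of the plates, and the difference was 0.01 ± 0.07 (SE), with a 95% interval from -0.14 to 0.16 and a limma adjusted p of 0.91. Pgr, on chromosome 9, is a gene that oestrogen receptors induce in many tissues. It had values of -0.10, 0.02 and 0.04 on the A_212 arrays, against -0.02, -0.13 and 0.05 on the N_46 arrays. The lines overlapped, and the difference was 0.02 ± 0.08 (SE) with an interval from -0.15 to 0.20 (limma adjusted p = 0.83). Each of these genes was read by 1 probe set. The SD between plates of Esr1 was 0.03 in A_212 and 0.02 in N_46, where the median over all genes was 0.10 in A_212 and 0.08 in N_46. Since no levels are kept, a gene at the background of the array in both lines and a gene expressed equally in both cannot be told apart.

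Neither thyroid hormone receptor gene passed the test. Thra, on chromosome 11, had values of -0.19, 0.24 and 0.13 on the A_212 arrays, against 0.03, -0.17 and -0.03 on the N_46 arrays. The lines overlapped because A_212 replicate 1 was the lowest array of all, and the SD of 0.22 in A_212 was the widest of any member. The difference was 0.12 ± 0.11 (SE), with a 95% interval from -0.13 to 0.36 and a limma adjusted p of 0.43, and its 2 probe sets differed by 0.11 and 0.13. The value turned on single arrays: it was 0.24 without A_212 replicate 1 (adjusted p = 0.067), 0.03 without A_212 replicate 2 and 0.06 without N_46 replicate 2.

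Thrb, on chromosome 14, had values of -0.11, -0.02 and -0.06 on the A_212 arrays, against 0.02, 0.30 and 0.19 on the N_46 arrays. The lines did not overlap, yet the nearest arrays, A_212 replicate 2 and N_46 replicate 1, were only a small step apart. The difference of -0.23 ± 0.08 (SE, n = 3 arrays per line; 95% interval -0.42 to -0.04) had a limma adjusted p of 0.052 and so lay just short of the threshold. It passed with array weights (-0.28, adjusted p = 0.013), with the replicate block (-0.23, adjusted p = 0.042) and without N_46 replicate 1 (-0.31, adjusted p = 0.013). The gene rests on 1 probe set, 1422202_at, which had an adjusted p of 0.069 over all probe sets and did not pass with the replicate block (0.063). Over all alternatives the adjusted p ranged from 0.013 to 0.22.

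Dio2, on chromosome 12, gave different answers by probe set. The probe set 1418937_at had values of 0.10, 0.43 and 0.62 on the A_212 arrays, against -0.12, -0.10 and -0.11 on the N_46 arrays. All A_212 values were above all N_46 values, and they spread over a wide range while the N_46 values lay close together. Its difference was 0.49 ± 0.12 (SE), a 1.41-fold higher signal in A_212 (95% interval 0.23 to 0.76, limma adjusted p = 0.0083 over all probe sets). Probe set 1418938_at, annotated to the same transcript record, differed by -0.04 ± 0.10 (adjusted p = 0.82), and 1426081_a_at by 0.0034 ± 0.08 (adjusted p = 0.98). The first probe set's difference exceeded those of the others by 0.53 and 0.49, both at p = 0.1 in the exact permutation test, its smallest value, or 0.27 after adjustment over the 8 pairs. The mean of the 3 probe sets differed by 0.15 ± 0.08 (SE; interval -0.03 to 0.34, limma adjusted p = 0.17), so Dio2 did not pass as a gene. That difference was 0.05 with the median of the probe sets (adjusted p = 0.58), 0.23 with plain probe sets alone (0.072) and 0.08 without A_212 replicate 3 (0.37).

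**Figure D2:**
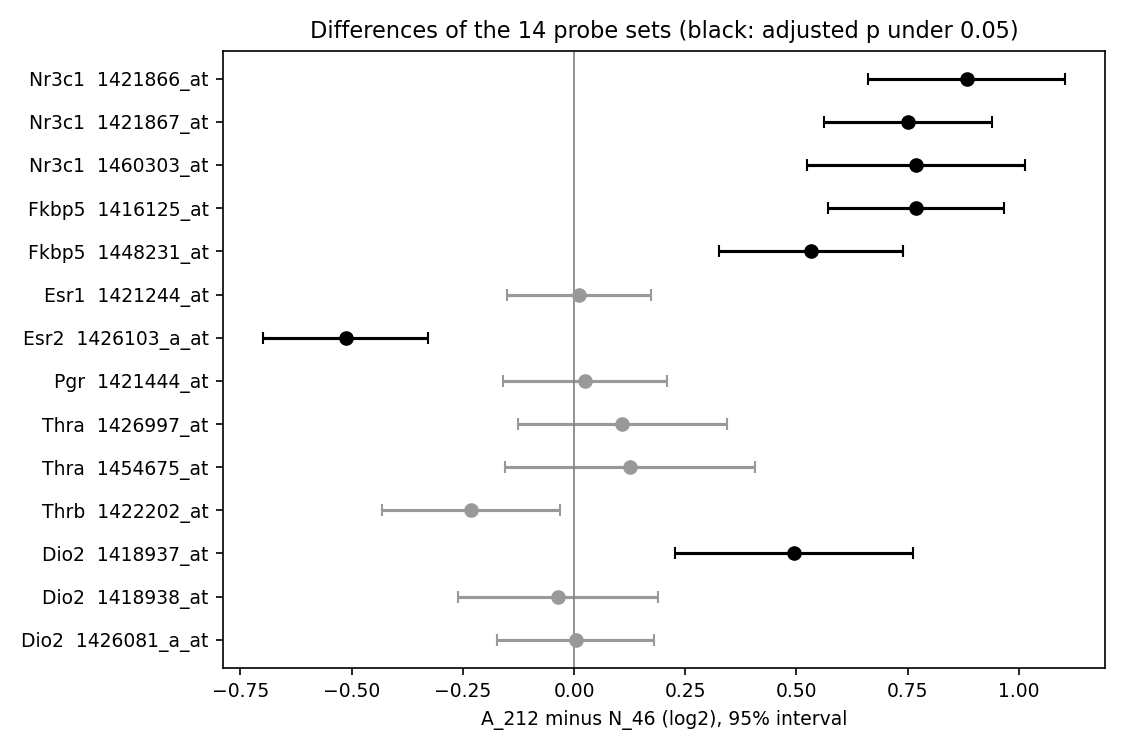
Difference of each of the 14 probe sets, A_212 minus N_46, on the log2 scale with its 95% interval from limma. Black marks an adjusted p under 0.05 over all probe sets and grey the others. The probe sets of Nr3c1 and Fkbp5 lie to the right of 0, Esr2 lies to the left, and 1 of the 3 Dio2 probe sets stands apart from the others.

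In order of their differences the genes ran from Nr3c1 (0.80) over Fkbp5 (0.65), Dio2 (0.15), Thra (0.12), Pgr (0.02), Esr1 (0.01) and Thrb (-0.23) to Esr2 (-0.51). The interval of Fkbp5 begins above the upper end of that of Dio2. From Dio2 to Esr1 all intervals overlap and include 0, and without A_212 replicate 1 Thra (0.24) stood above Dio2 (0.21). The interval of Thrb overlaps those of Esr1, Pgr, Thra and Esr2 and lies below that of Dio2.

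**Figure D3:**
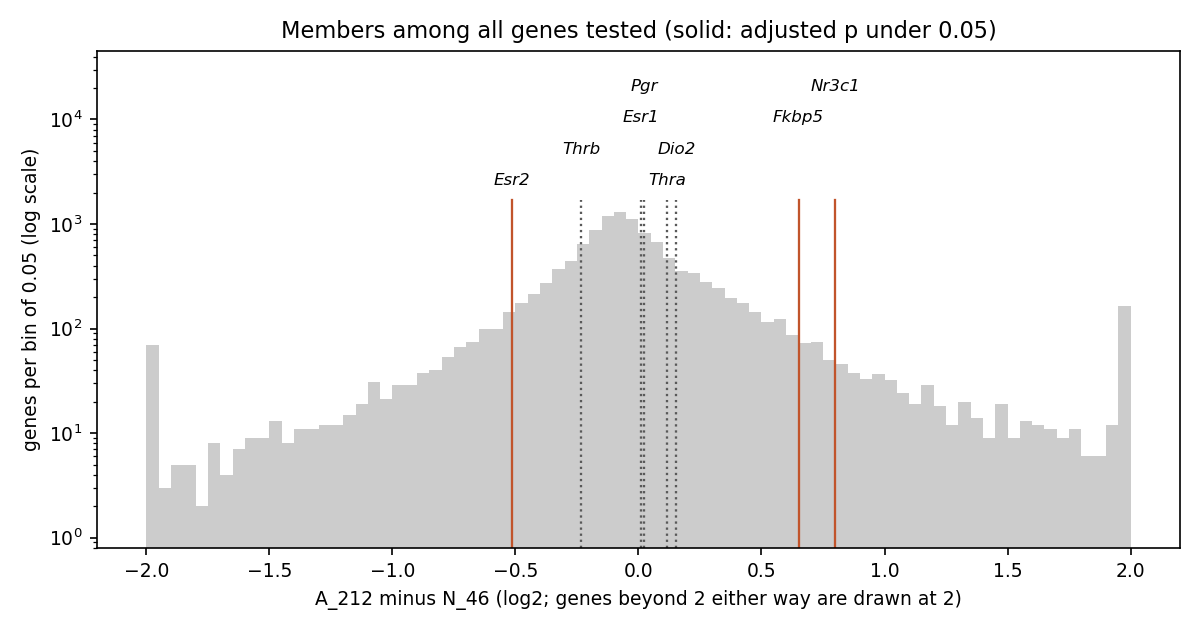
Distribution of the difference A_212 minus N_46 (log2, x axis) over 12393 genes, with the number of genes per bin on a log axis and genes beyond 2 in either direction drawn at 2. Vertical lines are the members, solid where the adjusted p was under 0.05. Nr3c1 at 0.80 and Esr2 at -0.51 lie on the flanks of the distribution, not in its far tails.

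By root mean square distance over the 6 arrays, the genes with the most similar values to Nr3c1 were the BCL2 family gene Bok (distance 0.04 log2 units), the phospholipid scramblase gene Plscr1 (0.05) and Wdr6 (0.05). The nearest to Fkbp5 were the protein kinase gene Dmpk (0.03), the galactosyltransferase gene B4galt6 (0.04) and the zinc transporter gene Slc30a4 (0.04). The nearest to Esr2 were H2-Q5, an MHC class I gene (0.04), Lce1i (0.04) and the mitochondrial carrier gene Slc25a45 (0.04). These distances over 6 arrays describe a shared step between the lines plus the plates' scatter.

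The other genes of steroid and thyroid hormone action came from 10 lists that held 114 measured genes, each counted once. Of these, 20 were higher in A_212, 24 were lower and 70 did not pass, a share called of 38.6% against 39.2% of all genes. The lists' medians ranged from -0.13 to 0.06, against -0.06 for all genes.

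**Figure D4:**
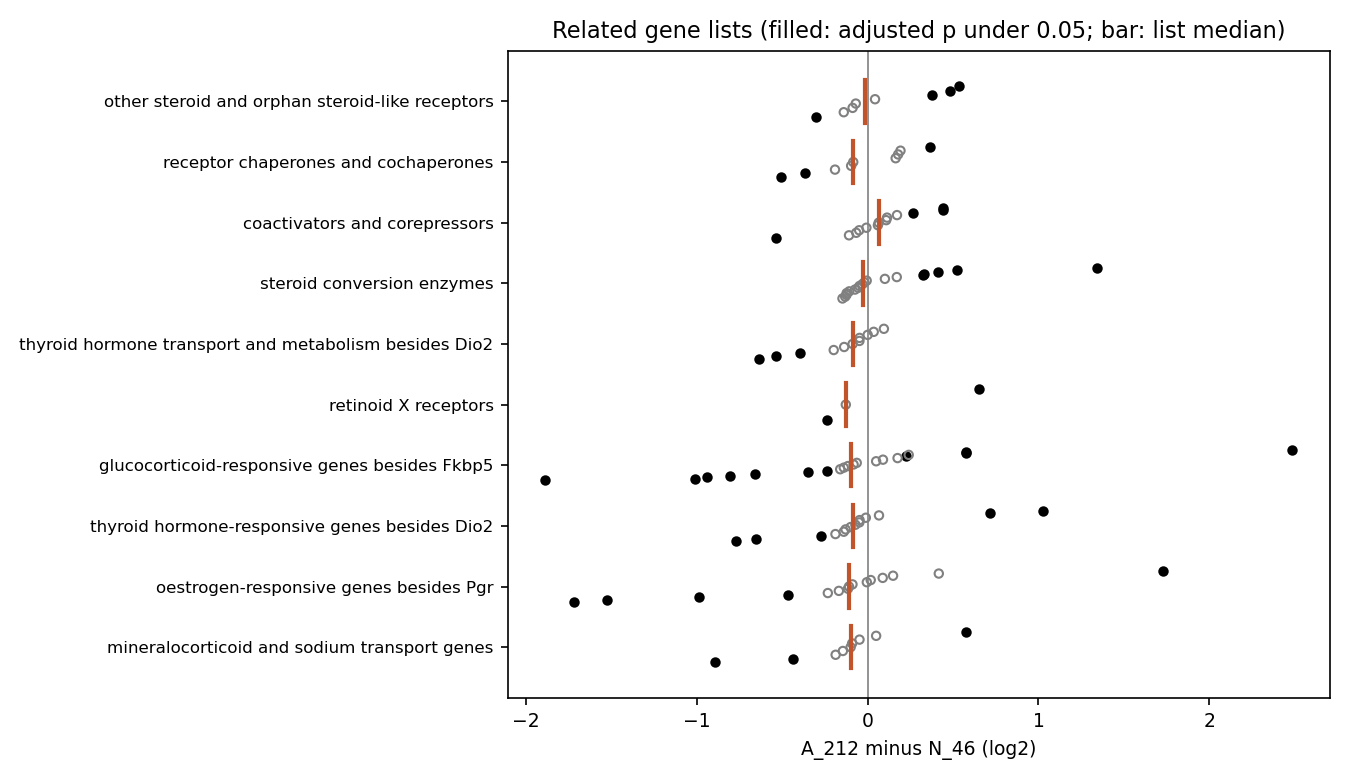
Difference of every measured gene of the 10 related lists, A_212 minus N_46 (log2, x axis), 1 row per list. Filled points had an adjusted p under 0.05, open points did not, and orange bars are list medians. The widest spread is in the glucocorticoid-responsive list, with Rgs2 at 2.49 and Pdk4 at -1.89.

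Among 8 other steroid and orphan receptors measured, 3 were higher in A_212, 1 was lower and 4 did not pass, with a median of -0.01. The membrane progestin receptor gene Paqr7 differed by 0.53 ± 0.12 (SE, n = 3 arrays per line) and Pgrmc2, which encodes a progesterone receptor membrane component, by 0.48 ± 0.07. Esrra, the oestrogen-related receptor alpha, an orphan receptor of mitochondrial metabolism, differed by -0.30 ± 0.07.

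Of 9 receptor chaperones and cochaperones, 1 was higher in A_212, 2 were lower and 6 did not pass, with a median of -0.08. Fkbp4, whose protein competes with that of Fkbp5 for the receptor complex and favours its transport to the nucleus, had values of -0.10, -0.36 and -0.21 on the A_212 arrays, against -0.01, 0.22 and 0.21 on the N_46 arrays. The lines did not overlap, and the difference of -0.37 ± 0.09 (SE) was opposite in sign to that of Fkbp5 (limma adjusted p = 0.0092). Stip1, which hands clients from HSP70 to HSP90, was also lower in A_212 (-0.51 ± 0.07), and Cdc37, an HSP90 cochaperone of kinases, was higher (0.36 ± 0.07).

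Of 13 nuclear receptor coactivators and corepressors, 3 were higher in A_212, 1 was lower and 9 did not pass, with a median of 0.06. Hdac3 (0.44 ± 0.07, SE) and Gps2 (0.44 ± 0.09), both subunits of the corepressor complex that unliganded thyroid hormone receptors recruit, were higher in A_212. The further subunits Tbl1x (0.06, adjusted p = 0.60) and Tbl1xr1 (-0.0079, adjusted p = 0.94), named after their values were seen, did not pass. Ppargc1a, a coactivator of several nuclear receptors in energy metabolism, was lower (-0.54 ± 0.10). Of the 3 retinoid X receptors, Rxra was higher in A_212 (0.65 ± 0.07), Rxrb was lower (-0.24 ± 0.08, limma adjusted p = 0.041) and Rxrg did not pass. Rxrb lost its call when any of the arrays other than A_212 replicate 2 was left out (adjusted p from 0.057 to 0.12), under both other array scalings (0.082 and 0.063) and with array weights (0.055).

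Of 18 steroid conversion enzymes, 5 were higher in A_212, 0 were lower in limma and 13 did not pass, with a median of -0.03. Hsd3b7, an enzyme of bile acid synthesis from oxysterols, differed most, with 0.81, 0.78 and 0.58 on the A_212 arrays against -0.58, -0.61 and -0.67 on the N_46 arrays. The lines were widely separated, and the difference was 1.34 ± 0.08 (SE). Hsd17b10, a mitochondrial dehydrogenase that also acts on fatty acid intermediates, followed at 0.52 ± 0.08. Without A_212 replicate 2 the count of enzymes higher in A_212 was 3 instead of 5. At an unadjusted limma p under 0.05 the count lower in A_212 was also 0, and it was 1 with array weights and without A_212 replicate 3.

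Of 11 genes of thyroid hormone transport and metabolism besides Dio2, 0 were higher in A_212 in limma, 3 were lower and 8 did not pass, with a median of -0.09. Slc7a5 and Slc3a2 encode the subunits of an amino acid transporter that also carries thyroid hormones, and both were lower in A_212, at -0.64 ± 0.07 and -0.54 ± 0.08 (SE). Slc7a5 had -0.36, -0.34 and -0.27 on the A_212 arrays, against 0.27, 0.36 and 0.31 on the N_46 arrays, with no overlap. At an unadjusted limma p under 0.05, 0 of the 11 genes were higher in A_212 and 4 were lower.

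The glucocorticoid-responsive genes besides Fkbp5 differed in both directions. Of 20 measured, 4 were higher in A_212, 7 were lower and 9 did not pass, with a median of -0.10. The share called was 55%, against 39.2% of all genes, and no test of the list as a whole was run. Tsc22d3, which encodes the leucine zipper protein GILZ and is induced by glucocorticoids in many cell types, had 0.15, 0.43 and 0.40 on the A_212 arrays, against -0.30, -0.21 and -0.23 on the N_46 arrays. It was higher in A_212 by 0.58 ± 0.09 (SE, limma adjusted p = 0.00038). The regulator of G-protein signalling Rgs2 was higher by 2.49 ± 0.09, a 5.61-fold difference. In the other direction, the pyruvate dehydrogenase kinase gene Pdk4 differed by -1.89 ± 0.09 and the transcription factor gene Klf15 by -1.01 ± 0.20. Klf15 had -0.37, -0.24 and -0.45 on the A_212 arrays, against 1.25, 0.49 and 0.24 on the N_46 arrays, so N_46 replicate 1 stood well above its line.

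That array, singled out after the values were seen, was the highest of the 3 N_46 arrays in 15 of the 20 glucocorticoid-responsive genes, compared with 29.9% of all genes. Other lists leaned to 1 array too. A_212 replicate 1 was the highest of its line in 6 of the 9 receptor chaperones and cochaperones (28.1% of all genes). A_212 replicate 3 was the highest in 5 of the 8 other steroid and orphan receptors (35.3% of all genes). The glucocorticoid-responsive list had a mean value of 0.20 on N_46 replicate 1, against -0.03 and 0.02 on N_46 replicates 2 and 3, and it ranged from -0.09 to -0.01 on the A_212 arrays. Without N_46 replicate 1, 5 of the 20 genes were higher in A_212 and 5 were lower. Nr3c1 itself differed by 0.84 and Fkbp5 by 0.58 without that array, and both passed (limma adjusted p = 8.3e-05 and 0.00035).

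**Figure D5:**
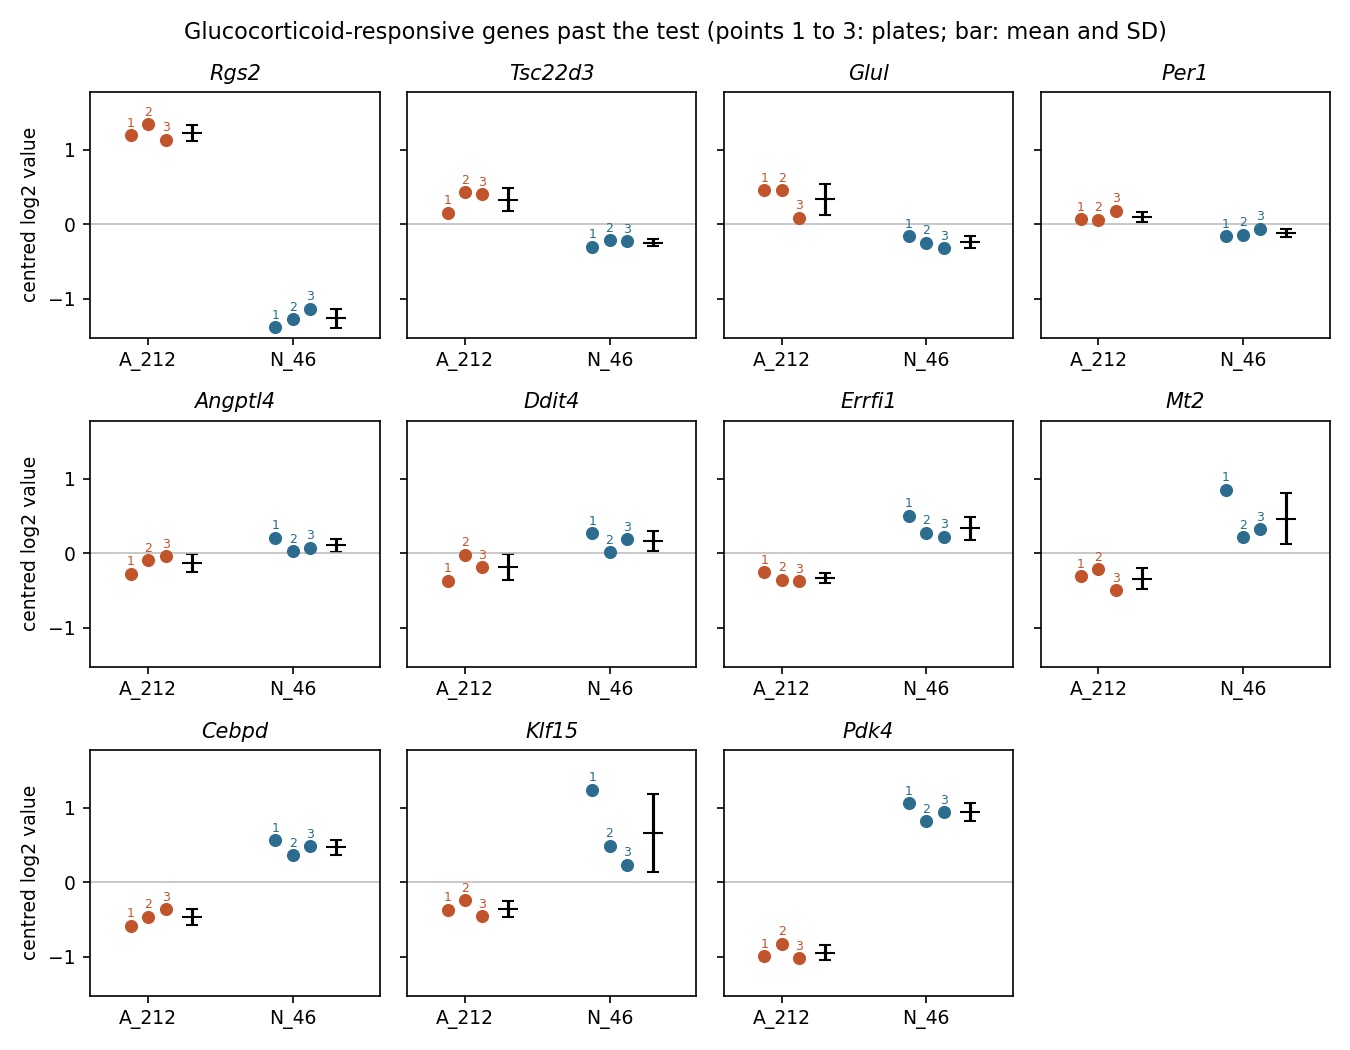
Centred log2 values on the 6 arrays of the 11 glucocorticoid-responsive genes that passed the test, A_212 left and N_46 right in each panel. Numbered points are plates and bars give the mean and SD (n = 3). Rgs2 and Tsc22d3 lie higher in A_212 and Pdk4 and Klf15 lower, and N_46 plate 1 is the highest N_46 point of Klf15 at 1.25.

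Of 14 thyroid hormone-responsive genes besides Dio2, 2 were higher in A_212, 3 were lower and 9 did not pass, with a median of -0.09. The malic enzyme gene Me1 (1.02 ± 0.07, SE) and Bcl3 (0.72 ± 0.11) were higher in A_212. The monocarboxylate transporter gene Slc16a1 (-0.77 ± 0.07) and Cpt1a, an enzyme gene of fatty acid entry into mitochondria (-0.66 ± 0.15), were lower. Of 15 oestrogen-responsive genes besides Pgr, 1 was higher in A_212, 4 were lower and 10 did not pass, with a median of -0.11. The binding protein gene Igfbp4 was higher in A_212 (1.73 ± 0.17), and Myc (-1.72 ± 0.12) and the cyclin gene Ccnd1 (-1.53 ± 0.14), both general growth genes, were lower. With plain probe sets alone, 10 of the 15 oestrogen-responsive genes had a value, Igfbp4 and Myc not among them, and 2 passed.

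Of 9 mineralocorticoid and sodium transport genes, 1 was higher in A_212 (Tsc22d3, as above), 2 were lower and 6 did not pass, with a median of -0.10. The sodium pump subunit gene Atp1b1 (-0.90 ± 0.09, SE) and the ubiquitin ligase gene Nedd4l (-0.44 ± 0.07) were lower in A_212. Neither call held with plain probe sets alone, at -0.13 (adjusted p = 0.31) for Atp1b1 and 0.01 (adjusted p = 0.92) for Nedd4l, and without A_212 replicate 3 the list had 6 calls instead of 3.

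Marker lists of the labelled cell type and of other cells are read against the 39.2% of all genes that passed. Among fibroblast and mesenchymal markers, 10 of 12 were higher in A_212 and 1 was lower, and the list's mean value ranged from 0.87 to 1.12 on the A_212 arrays, against -1.03 to -0.91 on the N_46 arrays. Of 11 neuronal markers, 2 were higher in A_212, 1 was lower and 8 did not pass, with a median difference of -0.06 and 8 of the 11 differences below 0. The list means lay between 0.147 and 0.155 on the A_212 arrays, against -0.220 to -0.131 on the N_46 arrays, and the largest differences in them were those of Stmn2 (3.09) and Tubb3 (1.13), named after their values were seen. Npy differed by -0.05 ± 0.08 (SE, limma adjusted p = 0.66). Calls were 1 higher and 2 lower in A_212 among 8 astrocyte markers, 2 and 0 among 7 oligodendrocyte lineage markers, 0 and 1 among 6 microglia and macrophage markers, and 4 and 1 among 8 endothelial and pericyte markers. For the counts of 0, an unadjusted limma p under 0.05 gave 1 oligodendrocyte lineage marker lower and 0 microglia and macrophage markers higher in A_212. Centred values do not show which of these markers were absent. The part of these marker differences in those of Nr3c1, Fkbp5 and Esr2 was not tested.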

How the data were processed

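RNA of 6 culture plates was hybridised to 1 array each, from cRNA labelled with biotin and made from 5 µg of total RNA, per the labels' protocols. The authors made the deposited values with RMA, per the submitters' processing notes, with no version given in the labels. The deposited values were read as log2, a base that was inferred. RMA includes quantile normalisation between arrays, so a difference in total RNA between lines would not show. The deposited values have a median of 0 per probe set within 5e-07, a centring that no source used here describes. No expression level or background call is kept, and the number of arrays limits the precision.

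Of 22690 probe sets, 64 were controls, 20380 were named for 1 gene, 691 for several and 1555 for none in the platform annotation. Through gene identifiers, 20351 were found in RefSeq (GRCm38.p6), with 0 symbols changed. Groups came from the cell line in the labels. Genes (means of probe sets, 12393) and 22626 probe sets were each fitted with limma 3.58.1 in R 4.3.3 (lmFit, eBayes, two-sided, no block). Pairs of probe sets were compared by exact permutation. The members and lists were chosen with earlier results of these data known. Genes were named by rule: all members, Npy, up to 2 genes each way per list among those that passed, and the 3 nearest genes to each member that passed.

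The replicate numbers are not known to pair the samples. Deviations of same-numbered plates correlated at -0.03, -0.01 and 0.09 across genes, which does not settle whether plates were paired. Alternatives were 2 other array scalings, array weights, robust eBayes, a replicate block, plain probe sets alone, the median of probe sets, and each array left out. Data were simulated with 12393 genes, 200 of them changed, and the measured spread. There limma recovered 12.0% of genes with a true change of 0.3, 64.0% at 0.5, 86.0% at 0.8 and 100% at 2. Of the 138 calls, 7 were false. In the measured data 4853 genes passed, so the Benjamini-Hochberg cutoff was less strict there. The simulated shares therefore do not measure how many true changes were missed between these lines. Figures and motif searches used Python 3.11.15 with matplotlib 3.10.9.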

Additional observations from a re-analysis of the deposited data

How the results depend on the processing

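Over 13 alternatives, the calls of Nr3c1 (0.73 to 0.86), Fkbp5 (0.58 to 0.71) and, where measured, Esr2 (-0.57 to -0.45) kept their direction and passed. With plain probe sets alone Esr2 has no value. Thrb passed with array weights (-0.28) and with the replicate block (-0.23), its probe set alone gave -0.28 with array weights (adjusted p = 0.020) and did not pass with the block (0.063), and leaving out 1 array gave -0.31 to -0.16. The member genes called numbered 4 with array weights, with the block and without N_46 replicate 1. The block, whose replicate numbers are not known to pair the plates, gave 4834 genes called against 4853 without it, and ended no call of a member. Thra ranged from 0.029 to 0.24 when 1 array was left out, and Dio2 from 0.054 to 0.23 over all alternatives, with neither passing. Some values near 0 changed sign without passing. When 1 array was left out, Esr1 ranged from -0.0011 to 0.027, Pgr from -0.023 to 0.066, Npy from -0.13 to 0.0081, and the Dio2 probe sets 1418938_at from -0.101 to 0.055 and 1426081_a_at from -0.035 to 0.053. With array weights, the Pgr probe set differed by -0.0036 and 1426081_a_at by -0.014, and with plain probe sets Nedd4l differed by 0.011. Of 909 values recomputed, 871 kept direction and side of the threshold or, for counts, stayed within 1.5 times. Scaling arrays to 1 median turned the majority of calls, with 52.0% of 4756 genes higher in A_212 against 46.7% of 4853 as deposited. Signal over background, which centring removed, limits what can be said of receptors with small differences. The causes of these changes were not tested.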
